A study of Drosophila melanogaster with 8 samples.

Results

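The antimicrobial peptide genes of Drosophila melanogaster were examined here in RNA of the larval heart, aorta, whole dorsal vessel and whole larva. The 10 genes were Dpt, DptB, AttA, AttB, AttC, CecA1, Drs, Mtk, Def and Dro, looked up by symbol or locus tag in the annotation of the arrays. An oligonucleotide was found for 9 of the 10, 1 for each gene, among 13294 genes with an oligonucleotide on the array. DptB was found through its locus tag (CG10794), and CecA1 is named only, because no oligonucleotide carried its symbol. In the RefSeq annotation 8 of the 10 genes lie on chromosome arm 2R, where Dpt and DptB are neighbours and Dro, AttA and AttB follow each other. The oligonucleotide of AttA matches transcripts of both AttA and AttB in the annotation of the files, so AttA and AttB RNA cannot be told apart at that spot.

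All RNAs came from wild-type L3 larvae (strain given as WT (yw; Canton S)) raised at 25 °C, with no infection or other treatment named in the labels. On 4 arrays the heart, which is the posterior part of the dorsal vessel, was hybridised against the aorta, its anterior part, with RNA of 10 hearts or 10 aortae in each pool. The other 4 arrays set the entire dorsal vessel against whole larvae from pools of 5. Per the labels the 4 arrays of a comparison are biological replicates, with the heart in Cy5 on replicates 1 and 2 and in Cy3 on replicates 3 and 4, and the dorsal vessel in Cy3 on replicates 1 and 2 and in Cy5 on replicates 3 and 4. These are hand-dissected organs, so a pool can hold adhering cells as well as cardiac ones, and a p-value below measures the spread between such pools.

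Antimicrobial peptides are small secreted proteins that kill bacteria or fungi. In flies they are made mainly by the fat body after infection and released into the hemolymph that the heart pumps, and some are also made locally in barrier tissues such as gut and trachea. Their genes are switched on by the NF-kB factors Relish, at the end of the Imd pathway, and Dif and Dorsal, at the end of the Toll pathway. Diptericin genes are the usual readout of Imd signalling and Drosomycin that of Toll signalling.

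Signals are given as background-corrected fluorescence units (RFU), and a spot counted as detected when it exceeded the level below which 95% of the blank spots (negative controls and empty positions) of its channel lay. That level lay between 1.19 and 4.09 RFU, and 30.1 to 55.2% of gene oligonucleotides exceeded it in a channel. Genes detected on 2 or more arrays of a comparison in either RNA were tested. Arrays of dorsal vessel and whole larva correlated with each other at r = 0.790 to 0.888 in their log2 ratios, while heart and aorta arrays of the same dye orientation correlated at 0.456 (replicates 1 and 2) and 0.455 (replicates 3 and 4). Heart and aorta pairs of opposite orientation correlated between -0.493 and 0.168, the lowest being replicates 1 and 3, and there dye and pool cannot be told apart. Values without replicates 1 and 3 follow where they matter. The dissection was checked with cardiac genes: Hand, a cardiac transcription factor, was 47.2-fold higher in dorsal vessel than in whole larvae (log2 ratio 5.56, SE 0.33, limma adjusted p = 6.34e-05). Of 13 cardiac genes tested there, 6 were higher and 1 (svp) was lower in dorsal vessel, and prc and tup were detected on 0 arrays. In a spot block that holds AttB, signals sat 1 position away from their annotation on heart/aorta replicate 3 and on dorsal vessel/larva replicates 1 and 2. The tests and the marker lists used the readings of this block as deposited, except where stated.

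Most antimicrobial peptide genes were near or below detection in these larvae. AttB, AttC, Def and Dro were detected on 0 of 8 arrays in either RNA. AttC, an attacin gene, had corrected signals of 0.783 to 3.36 RFU in heart, 1.30 to 3.27 in aorta, 0.876 to 3.07 in dorsal vessel and 0.906 to 2.43 in whole larvae. Def, which encodes defensin, active against Gram-positive bacteria, lay between 0.966 and 3.56 RFU in heart and between 1.53 and 3.55 in aorta, and between 0.983 and 2.82 in dorsal vessel and 0.855 and 2.59 in whole larvae. Dro, of the proline-rich peptide drosocin, lay between 1.14 and 3.44 RFU in heart and 1.57 and 3.40 in aorta, and between 0.686 and 2.80 in dorsal vessel and 0.781 and 2.78 in whole larvae. For AttB the 5 arrays read in place gave at most 1.76 RFU in heart, 3.29 in aorta, 1.43 in dorsal vessel and 2.08 in whole larvae, and reading the displaced block at its shifted place on the other 3 arrays also left AttB undetected. The log2 ratios of these 4 genes stayed between -0.17 and 0.13 on all arrays read in place. At this signal a difference was not detectable, which does not show that the RNA was absent.

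**Figure D1:**
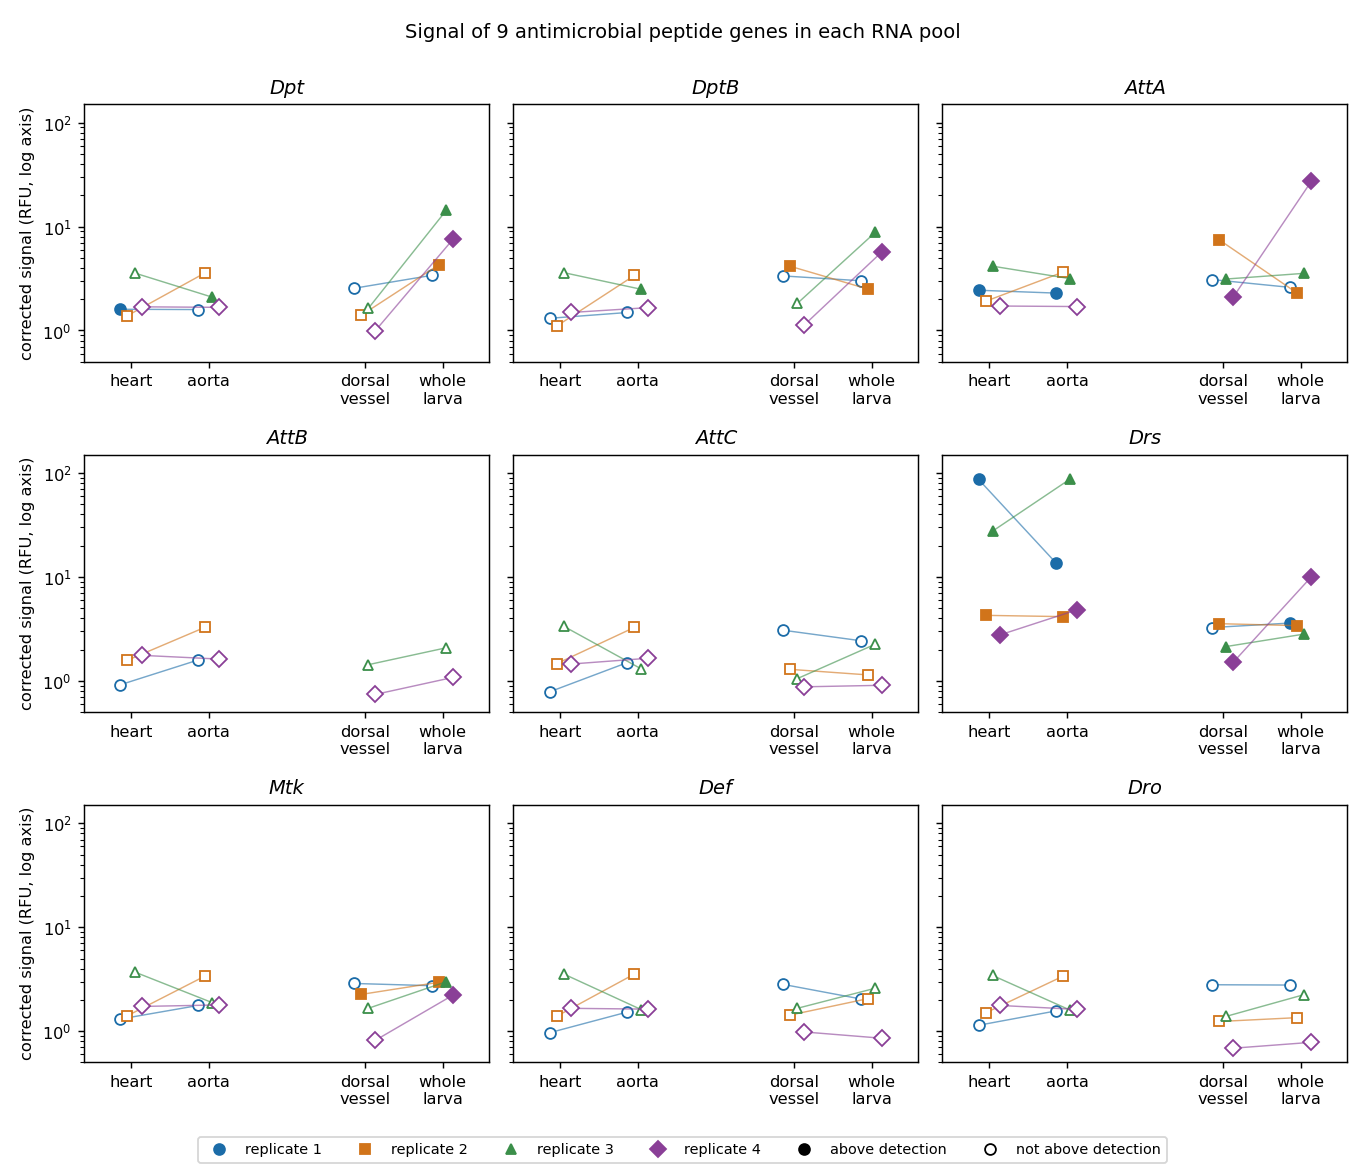
Corrected signal in RFU (log axis) of 9 antimicrobial peptide genes in heart, aorta, dorsal vessel and whole larva. Each symbol is 1 RNA pool, filled where the spot was detected, and lines join both RNAs of an array. AttB is drawn for the 5 arrays on which its block was read in place. Drs reaches 87.0 RFU in 1 heart pool and 88.1 in 1 aorta pool, and open symbols make up all of AttB, AttC, Def and Dro.

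Between heart and aorta, no antimicrobial peptide gene differed beyond the spread between pools. Of the 9 genes, 2 (AttA and Drs) were tested and 0 passed at an adjusted p of 0.05 in limma, against 1.94% of all 7061 oligonucleotides tested (1.43% higher and 0.51% lower in heart). Neither of the 2 had an unadjusted p below 0.05 (0.893 for AttA and 0.997 for Drs). All alternatives of processing and arrays that could be run also called 0.

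Drosomycin, the antifungal peptide gene Drs, was detected in every heart and aorta pool, with large differences from pool to pool. Hearts gave 87.0, 4.27, 27.6 and 2.76 RFU on replicates 1 to 4, against 13.5, 4.15, 88.1 and 4.84 RFU in aortae. Both organs were bright on replicates 1 and 3 and dim on replicates 2 and 4, and the ranges of heart and aorta overlapped almost entirely. The log2 ratios of heart over aorta were 2.17, 0.41, -1.86 and -0.72, so replicate 1 favoured heart and replicate 3 aorta. Their mean was 0.00 with an SD of 1.72 (n = 4), and the fitted log2 ratio had a 95% interval of -1.29 to 1.29 (limma adjusted p = 1). Of the oligonucleotides tested, 3.34% had a larger SD than Drs, and the median SD was 0.29. Without replicates 1 and 3 the log2 ratio was -0.16 (limma adjusted p = 0.999), and without replicate 1 alone it was -0.67 (adjusted p = 0.617).

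Drs was brighter in the Cy5 channel on all 4 heart and aorta arrays, whichever organ carried that dye. This was so for 9.68% of tested oligonucleotides with values on all 4 arrays. Fitted in limma on these 4 arrays, the Cy5 over Cy3 term of Drs was 1.29 on the log2 scale (SE 0.37, adjusted p = 0.133), and 3 of 7061 oligonucleotides (0.0425%) passed for that term. Because dyes were exchanged between replicates 1 and 2 and replicates 3 and 4, organ and dye are balanced in the mean. A difference between the replicates of each orientation cannot be told apart from the dye.

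Medians of midgut and salivary gland markers ran in the same order as Drs across the heart and aorta arrays, highest on replicate 1 and lowest on replicate 3. Not each marker did: betaTry had -5.70 on replicate 3 and -7.27 on replicate 4, and epsilonTry had -3.34 and -5.26. How many of all oligonucleotides share this order was not counted. Like Drs, betaTry (Cy5 over Cy3 term 4.85, limma adjusted p = 0.0494), Jon65Aiii (4.47) and Sgs8 (2.65) were brighter in Cy5 on all 4 arrays. For zetaTry (0.08) and Sgs1 (0.01) this was so on 2 arrays. These genes were chosen after their values were seen. The shared order therefore cannot be told apart from dye orientation. Of 15 midgut markers tested 0 passed, and their median log2 ratios were 3.40, 0.47, -3.34 and -0.87 on replicates 1 to 4. Their summed signal, over 17 measured genes, ran from 54.5 to 2016 RFU in hearts and from 79.8 to 2128 RFU in aortae, and Jon25Bi of this list was detected on 0 arrays. Of 8 salivary gland markers tested 0 passed, with medians of 3.13, 2.09, -2.98 and 0.07 and sums of 344 to 2965 RFU in hearts and 107 to 2040 RFU in aortae. Of 10 fat body markers tested 0 passed, with medians of 0.14, 0.00, 0.07 and -0.18, sums of 272 to 837 RFU in hearts and 377 to 500 RFU in aortae, and apolpp and to detected on 0 arrays. Single fat body genes departed from that median: Fbp1, of a receptor for serum proteins, had log2 ratios of 2.47, 0.72, -3.33 and -2.51, and Lsp2 had 0.74, 0.30, -1.32 and -1.74. Both were chosen after their values were seen. On replicate 3, where the block of spots was displaced, Lsp1beta gave 3.53 RFU in heart and 1.57 in aorta. Its other pools lay at 212 to 401 RFU (heart) and 169 to 237 RFU (aorta). In the salivary gland list, ng2 gave 167 and 346 RFU on replicate 3, against at most 1.73 and 3.44 RFU elsewhere. These readings are part of the sums of 272 and 344 RFU in hearts and 2040 RFU in aortae. Lsp1beta and ng2 were also chosen after their values were seen. The 11 hemocyte markers tested had medians of 1.06, 1.00, 2.03 and 0.84, with sums of 683 to 1436 RFU in hearts and 172 to 306 RFU in aortae and lz detected on 0 arrays. Of these hemocyte markers 7 passed, all higher in heart, but 3 or 4 passed without any single replicate and 2 on the 4 arrays alone. The part of any of these tissues in the Drs values was not tested.

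AttA, of an attacin active against Gram-negative bacteria, was faint in both organs. Hearts gave 2.44, 1.91, 4.16 and 1.72 RFU, against 2.29, 3.66, 3.15 and 1.70 RFU in aortae, and replicates 1 and 3 were the ones detected, in both organs. The log2 ratios were 0.00, 0.00, -0.25 and 0.00, with overlapping ranges (fitted -0.06, 95% interval -1.13 to 1.01, limma adjusted p = 0.97). The interval is much wider than these 4 values because the shared fit takes its spread from all 8 arrays, and AttA varied widely on the others.

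The diptericin genes and Mtk were too rarely detected for a test in this comparison. Dpt was detected in 1 heart pool and 1 aorta pool, with log2 ratios of 0.13, -0.11, -0.11 and 0.00. DptB was detected in 0 heart pools and 1 aorta pool, with log2 ratios of 0.13, -0.04, -0.22 and -0.09. Mtk, of the antifungal and antibacterial peptide metchnikowin, was detected in neither organ, with log2 ratios of -0.07, -0.01, 0.00 and -0.04.

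The median of other immune-induced peptide genes followed the same order of arrays as Drs, though not each gene did. Of 20 such genes listed, 18 had an oligonucleotide, 10 were tested and 0 passed for heart over aorta, with medians of 1.79, 0.31, -1.30 and -0.55 on replicates 1 to 4. The 4 with the smallest adjusted p were CecA2 (a cecropin, -0.37, limma adjusted p = 0.751), IM10 (an immune-induced hemolymph peptide, 0.57, adjusted p = 0.793), Drsl4 (0.29, adjusted p = 0.859) and IM23 (0.04, adjusted p = 0.868). Drsl1 and Drsl4, relatives of Drosomycin, had log2 ratios of 2.33, 0.50, -1.72 and -0.53 and of 2.47, 0.75, -1.30 and -0.77. IM2, a Bomanin gene of the Toll response (BomS2), had 3.98, 0.77, -3.78 and -1.54, and its signals were 280, 10.1, 27.8 and 2.32 RFU in hearts against 12.2, 6.34, 350 and 8.27 RFU in aortae. The order was not that of CecA2 (0.75, -0.87, -0.82 and -0.56), IM10 (1.73, 2.23, -2.29 and 0.63) or CecC (-0.11, -0.35, -0.12 and 0.03). Drsl1, Drsl4 and IM2 were also brighter in Cy5 on all 4 arrays, with Cy5 over Cy3 terms of 1.27, 1.32 and 2.52, and CecC on 1 (-0.09). Drsl1, IM2 and CecC were chosen after their values were seen. How much signal is shared between oligonucleotides of Drs and its relatives was not tested.

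**Figure D2:**
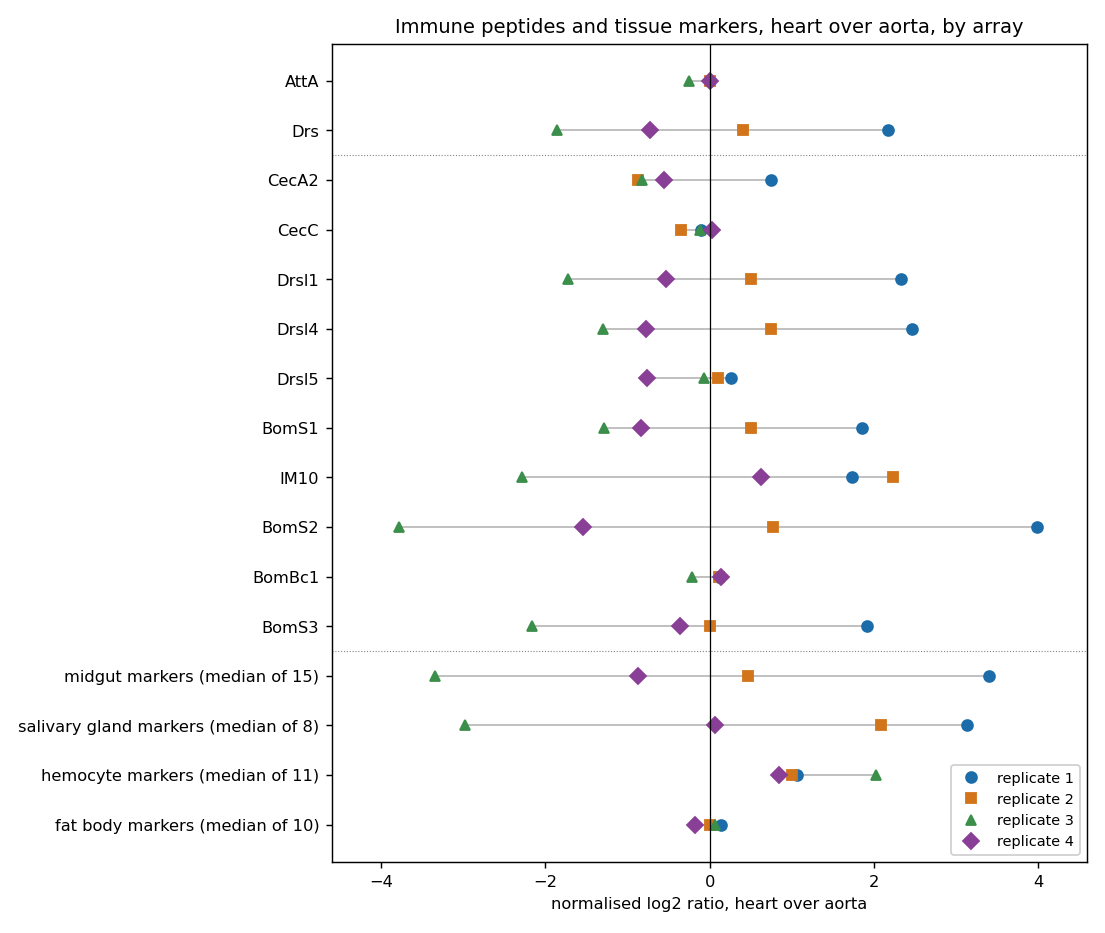
Normalised log2 ratio of heart over aorta on each of 4 arrays, for the tested antimicrobial peptide genes (top), other tested immune peptides (middle) and medians of tissue marker lists (bottom); symbols stand for replicates and grey lines span them. Replicates 1 and 3 lie at opposite ends for Drs (2.17 and -1.86), as they do for the midgut median (3.40 and -3.34), while the hemocyte medians are all above 0.

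Among genes upstream of the peptides, 1 passed between heart and aorta, which does not show that the others were alike. Some that missed the threshold had larger fitted ratios than the 1 that passed. Of 11 Imd pathway genes tested, 1 was higher in heart and 0 in aorta: Uev1A, of a ubiquitin-conjugating enzyme variant that acts in Imd signalling, had 0.56, 0.65, 0.34 and 0.52 on replicates 1 to 4 (fitted 0.52, SE 0.08, limma adjusted p = 0.0347). The call of Uev1A was lost without any single replicate (adjusted p = 0.0595 to 0.178), with the 4 arrays alone (0.095) or with median centring (0.199). Of 8 negative regulators of the Imd pathway 0 passed, the closest being the deubiquitinase gene CYLD (0.55, adjusted p = 0.103). Of 13 Toll pathway genes 0 passed, with grass, a serine protease gene, at 0.59 (adjusted p = 0.0639), Dif at -0.41 (adjusted p = 0.0728) and ModSP, of another protease of that cascade, at 0.61 (adjusted p = 0.15). The list medians were 0.05 (Imd), -0.08 (negative regulators) and 0.08 (Toll), beside -0.006 over all oligonucleotides tested.

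Between dorsal vessel and whole larva, the diptericin gene Dpt was lower in dorsal vessel, and the other antimicrobial peptide genes tested did not pass. Of the 9 genes, 5 (Dpt, DptB, AttA, Drs and Mtk) were tested, 1 was lower and 0 were higher. Over all 7550 oligonucleotides tested in this comparison 34.2% passed, 20.6% of them lower and 13.6% higher in dorsal vessel as shares of all tested, so a count of 1 in 5 is near the background. All 5 fitted log2 ratios were below 0, with a median of -0.37 beside -0.048 over all tested. Dpt, DptB and Mtk met the detection filter only through whole larvae, which favours values below 0. The shared sign and the median are therefore not a result about the genes as a group. In bulk RNA of equalised amount, fewer cells that make a peptide and less RNA per such cell cannot be told apart.

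Dpt encodes a diptericin, active against Gram-negative bacteria. Dorsal vessels gave 2.55, 1.40, 1.63 and 0.993 RFU, detected on 0 of 4 arrays, against 3.40, 4.31, 14.3 and 7.59 RFU in whole larvae, detected on replicates 2, 3 and 4. Every larval pool was brighter than every dorsal vessel pool, with replicate 3 the brightest. Of the tested oligonucleotides with values on all 4 arrays, 14.7% had such signals without overlap in the same direction. Dpt met the detection filter only through whole larvae, which favours a lack of overlap in this direction. The lack of overlap is therefore not separate support for the call. With no filter on dim oligonucleotides the limma adjusted p of Dpt was 0.0202. The log2 ratios were -0.41, -0.95, -2.48 and -1.32, and the fitted value was -1.29 (SE 0.25, 95% interval -1.88 to -0.70, limma adjusted p = 0.00935), 2.44-fold lower as measured. Dpt was not above background in any dorsal vessel pool. With those pools raised to the detection level of each array, the mean difference was 2.17-fold. Here and below, "at least" before a fold marks such a bound on the measured mean. It carries no sampling error, and for Dpt it includes replicate 1, where the larval pool was not detected either. The shared fit also draws on the heart and aorta arrays, where Dpt scarcely varied, and with only the 4 arrays of this comparison the adjusted p was 0.011. With an offset of 50 RFU before the logarithm Dpt missed the threshold (-0.13, adjusted p = 0.0576), and in the authors' deposited table of log2 ratios it was -2.14 (adjusted p = 0.00646).

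DptB, the neighbouring diptericin gene, varied more from pool to pool. Dorsal vessels gave 3.35, 4.15, 1.82 and 1.13 RFU, detected on replicate 2 alone, against 3.01, 2.50, 8.79 and 5.75 RFU in whole larvae, detected on replicates 2, 3 and 4. The larvae of replicates 3 and 4 were the brightest pools, as for Dpt, but the ranges of the RNAs overlapped. The log2 ratios were 0.03, 0.53, -1.70 and -0.92, and DptB did not pass (fitted -0.52, 95% interval -1.16 to 0.13, limma adjusted p = 0.17). With a dye effect fitted for each comparison it did (adjusted p = 0.04).

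AttA was set by single pools. Dorsal vessels gave 3.09, 7.45, 3.13 and 2.10 RFU, against 2.60, 2.29, 3.55 and 27.2 RFU in whole larvae. Replicate 2 was brighter in dorsal vessel and replicate 4 far brighter in whole larvae, and the ranges overlapped. The log2 ratios were 0.02, 1.23, -0.04 and -2.46 (fitted -0.31, 95% interval -1.37 to 0.74, limma adjusted p = 0.589), and 0.636% of tested oligonucleotides had a larger SD than the 1.55 of AttA. Without replicate 4 the fitted value was 0.37 (adjusted p = 0.334), and the other 3 ratios averaged 0.40.

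Drs was faint in both RNAs of this comparison except in the larvae of replicate 4. Dorsal vessels gave 3.26, 3.55, 2.14 and 1.51 RFU, against 3.60, 3.40, 2.82 and 10.0 RFU in whole larvae. The 10.0 RFU of the larval pool of replicate 4 lay apart, and the other values overlapped. The log2 ratios were -0.16, 0.04, 0.00 and -1.38 (fitted -0.37, 95% interval -1.64 to 0.90, limma adjusted p = 0.595), and the other 3 ratios averaged -0.04 without replicate 4. Across both sets of arrays, which were not scaled to each other, heart and aorta pools of replicates 1 and 3 (13.5 to 88.1 RFU) exceeded every dorsal vessel and larval pool. The heart and aorta pools of replicates 2 and 4 (2.76 to 4.84 RFU) overlapped with them.

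Mtk had small ratios of 1 sign. Dorsal vessels gave 2.88, 2.26, 1.66 and 0.816 RFU, against 2.74, 2.96, 2.99 and 2.23 RFU in whole larvae, with detection in 1 dorsal vessel pool and 3 larval pools. The ranges overlapped, with replicate 4 of the dorsal vessel lowest. The log2 ratios were -0.11, -0.16, -0.22 and -0.38, and Mtk did not pass (fitted -0.22, SE 0.08, 95% interval -0.41 to -0.03, limma adjusted p = 0.0673). Of 5 tested genes, 2 (Dpt and Mtk) had a negative ratio on all 4 arrays. This was true of 35.2% of tested oligonucleotides with values on all 4 arrays. Both met the detection filter only through whole larvae. Testing every oligonucleotide without a filter on dim ones put Mtk past the threshold (adjusted p = 0.0247).

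**Figure D3:**
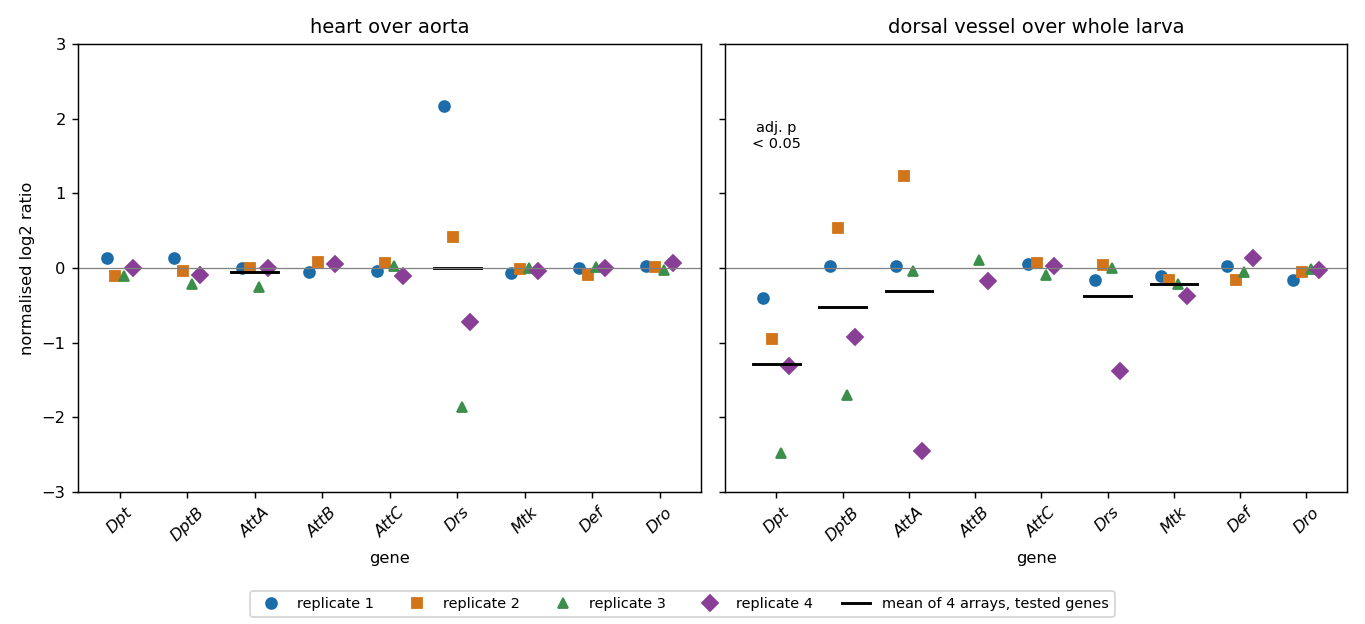
Normalised log2 ratio per array of 9 antimicrobial peptide genes, for heart over aorta (left) and dorsal vessel over whole larva (right). Symbols are replicates and black bars are means of 4 arrays for tested genes; the displaced readings of AttB are left out. Dpt at right is below 0 on all 4 arrays and is the gene with an adjusted p below 0.05, and Drs at left spans 2.17 to -1.86.

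Fat body markers were lower in dorsal vessel, beside the value of Dpt. Of 11 tested, 9 were lower and 1 was higher, with a median of -1.69, and the replicate medians were -0.62, -1.23, -2.23 and -2.34. Over 13 genes their summed signal was 96.5 to 198 RFU in dorsal vessels and 1114 to 3043 RFU in whole larvae, with Yp1 and to detected on 0 arrays. Lsp2 and Lsp1gamma, larval serum protein genes of the fat body, were 42.1-fold and 40.8-fold lower (log2 ratios -5.39 and -5.35, limma adjusted p = 5.85e-05 and 6.09e-05). Midgut markers (11 of 16 lower, 0 higher, summed signal 56.6 to 121 RFU in dorsal vessels and 1249 to 1879 RFU in larvae) and salivary gland markers (9 of 10 lower, 0 higher, 96.8 to 314 RFU in dorsal vessels and 3471 to 4610 RFU in larvae) were lower as well. Hemocyte markers had 2 of 11 higher and 1 lower, with sums of 315 to 669 RFU in dorsal vessels and 223 to 428 RFU in larvae. Without single replicates, 5 to 11 midgut, 6 to 8 fat body and 1 to 3 hemocyte markers passed, against 11, 10 and 3 with all replicates, and midgut was at 5 without replicate 3 or 4. Replicates 1 and 2 held the displaced block, whose readings were not left out of these medians, sums and counts. Lsp1beta had log2 ratios of 0.04, 0.13, -5.40 and -4.88, with larval signals of 3.36, 2.36, 844 and 829 RFU. Among salivary gland markers, Sgs1 had 0.32, 0.09, -4.99 and -4.15, and ng2 had 1.53, 1.93, -1.81 and -2.37. These genes were chosen after their values were seen. The part of any of these tissues in the peptide values was not tested.

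Among the other immune-induced peptides, the cecropin genes CecA2 and CecC were higher and 3 drosomycin relatives and AttD lower in dorsal vessel. Of 11 tested, 2 were higher and 4 were lower, with a median of -0.36, beside 13.6% higher and 20.6% lower over all oligonucleotides tested. CecA2, a cecropin gene that neighbours CecA1, had 4.41, 34.1, 6.50 and 10.8 RFU in dorsal vessels, against 2.73, 3.04, 3.12 and 1.64 RFU in whole larvae. The ranges did not overlap, and replicates 2 and 4 carried the largest ratios, 2.92 and 2.64 against 0.45 and 0.77 on replicates 1 and 3 (fitted 1.69, SE 0.47, 3.23-fold, limma adjusted p = 0.0322). CecC, another cecropin gene, had 3.98, 37.9, 11.3 and 19.1 RFU in dorsal vessels, against 3.21, 3.19, 7.85 and 4.02 RFU in whole larvae. Its log2 ratios were 0.17, 3.01, 0.27 and 2.51 (fitted 1.49, SE 0.48, adjusted p = 0.0497), with overlapping ranges. Both cecropin calls were lost without replicate 2 (adjusted p = 0.123 for CecA2 and 0.186 for CecC) or replicate 4 (0.137 and 0.204), and that of CecC also without replicate 3 (0.0508), with the 4 arrays alone (0.0922) or with a dye effect for each comparison (0.0635). CecC and Drsl4 were chosen after their values were seen.

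Drsl2, a drosomycin-like gene, had 3.22, 1.57, 1.44 and 0.711 RFU in dorsal vessels, against 5.83, 7.63, 12.5 and 15.2 RFU in whole larvae. It was detected in 0 dorsal vessel pools and all larval ones, without overlap, and was at least 3.16-fold lower (fitted log2 ratio -1.79, SE 0.22, limma adjusted p = 0.00122), a call kept without any single replicate. Drsl5 was at least 1.83-fold lower (-0.94, adjusted p = 0.032), Drsl4 3.36-fold lower (-1.75, adjusted p = 0.0471) and AttD, an attacin gene, 1.28-fold lower (-0.36, adjusted p = 0.0158). Leaving out single replicates ended the call of Drsl4 for each of the 4 (adjusted p = 0.0557 to 0.195), that of Drsl5 for replicates 1, 2 or 3 (0.0594 to 0.0891) and that of AttD for replicates 3 or 4 (0.0716 and 0.0517). With median centring Drsl4 and AttD missed the threshold (0.111 and 0.0514).

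Single pools stood out in several peptides at once, in signals that were not scaled between arrays. The larval pool of replicate 4 was the brightest of 4 larval pools for AttA (27.2 RFU) and Drs (10.0), and also for IM1 (a Bomanin gene, 31.9 against 2.56 to 3.31 in the other larval pools), IM2 (22.1) and Drsl4 (24.6). For Dpt and DptB the larval pool of replicate 3 was the brightest. The larval pool of replicate 4 was the dimmest of the larval pools for CecA2 (1.64 RFU), Drsl5 (1.92) and Rel (2.18), chosen after their values were seen. In its channel 54.7% of gene oligonucleotides were detected, the highest share among larval channels. The dorsal vessel pool of replicate 2 was the brightest of 4 dorsal vessel pools for AttA (7.45 RFU) and DptB (4.15), and also for CecA2 (34.1), CecC (37.9), IM10 (56.5, against 6.10 to 7.58 in the other dorsal vessel pools) and the Relish gene Rel (12.8). The log2 ratio of Rel was 1.51 on that replicate and -0.13, -0.52 and 0.87 on replicates 1, 3 and 4. IM1, IM2, IM10 and Rel were chosen here after their values were seen.

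**Figure D4:**
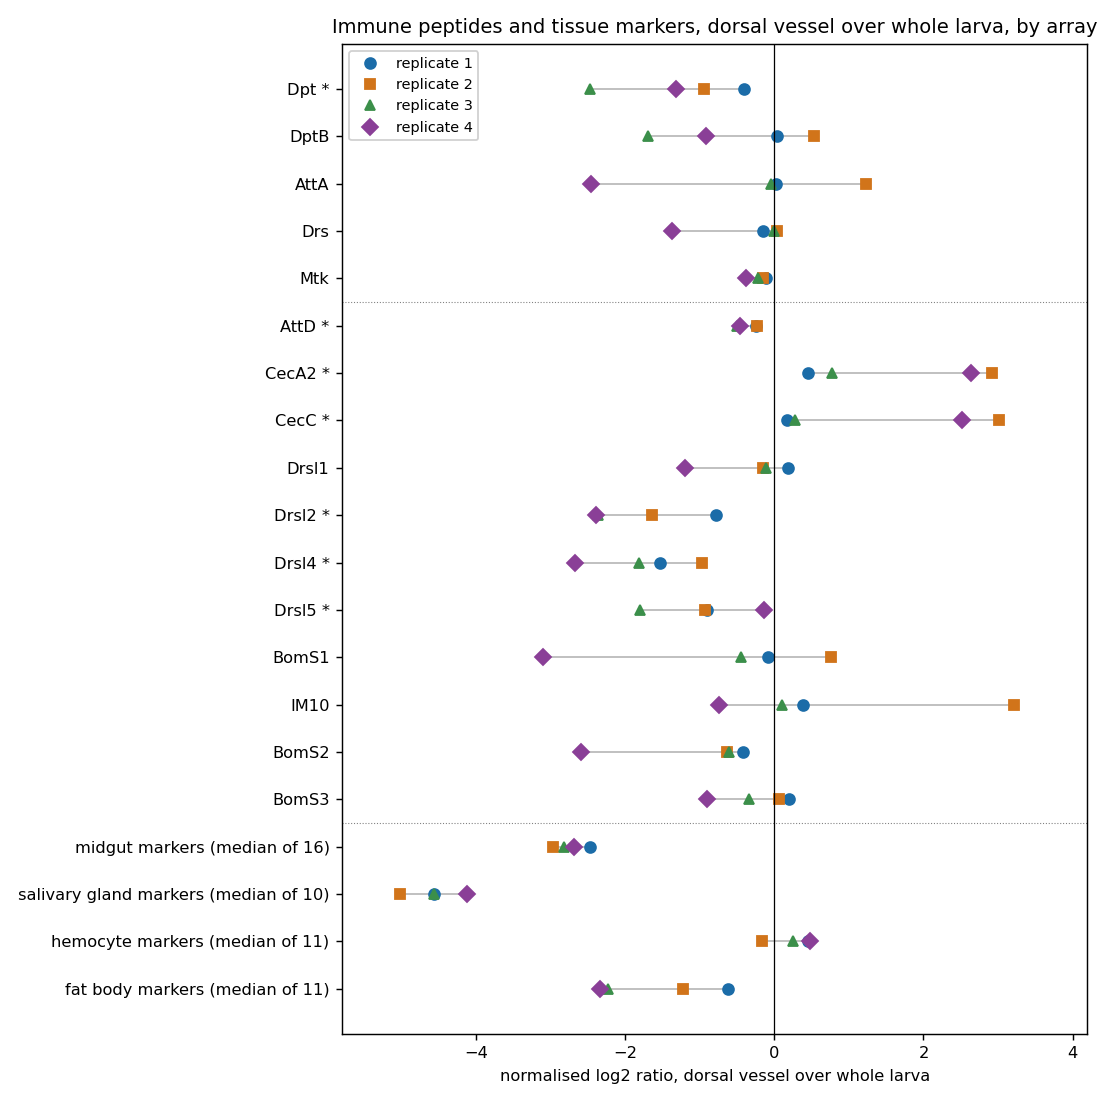
Normalised log2 ratio of dorsal vessel over whole larva on each of 4 arrays, for the tested antimicrobial peptide genes (top), other tested immune peptides (middle; BomS1, BomS2 and BomS3 are IM1, IM2 and IM3) and medians of tissue marker lists (bottom); an asterisk marks an adjusted p below 0.05. Dpt lies below 0 and CecA2 and CecC above 0 on all 4 arrays, replicate 4 is lowest for AttA (-2.46) and Drs (-1.38), and replicate 2 is highest for AttA (1.23) and IM10 (3.22).

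Upstream of the peptides, counts of genes that passed in dorsal vessel over whole larva lay near the shares over all oligonucleotides (13.6% higher and 20.6% lower). Of 10 Imd pathway genes tested 2 were higher and 0 lower, of 8 negative regulators 1 was higher and 2 were lower, and of 13 Toll pathway genes 2 were higher and 3 were lower. In these small lists the counts say nothing particular to a pathway. PGRP-LC, the membrane receptor of the pathway, had log2 ratios of 0.59, 0.51, 0.26 and 0.36 (fitted 0.43, SE 0.10, limma adjusted p = 0.0151), and the adaptor gene imd was at least 1.12-fold higher (0.29, adjusted p = 0.0417) with 0 of 4 larval pools detected. The call of imd was lost without any single replicate (adjusted p = 0.0846 to 0.137), with the 4 arrays alone (0.0875) or with median centring (0.153). That of PGRP-LC was lost without replicates 2, 3 or 4 (0.051 to 0.055) or with median centring (0.0546). PGRP-LE (0.26, adjusted p = 0.167), of an intracellular receptor, did not pass.

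Among the negative regulators of the Imd pathway, PGRP-LF, of a membrane protein that holds back PGRP-LC, had 6.19, 17.8, 5.88 and 6.29 RFU in dorsal vessels, against 2.81, 3.67, 3.05 and 1.44 RFU in whole larvae, without overlap (log2 ratio 1.34, SE 0.25, 2.53-fold, limma adjusted p = 0.00801). The enzyme gene PGRP-SC2, whose product cleaves peptidoglycan, was 5.89-fold lower (-2.56, adjusted p = 0.035), a call lost without replicates 2, 3 or 4 (0.0963 to 0.136) or with median centring (0.072). The deubiquitinase gene scny was 1.56-fold lower (-0.64, adjusted p = 0.00614), a call lost with median centring (0.337). CYLD did not pass (-0.39, adjusted p = 0.0683).

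In the Toll pathway, Dif, an NF-kB factor, had 57.2, 51.9, 57.0 and 25.1 RFU in dorsal vessels, against 3.50, 3.66, 3.86 and 2.33 RFU in whole larvae. The groups lay far apart on every array, with log2 ratios of 3.29, 3.29, 3.18 and 3.43 (fitted 3.30, SE 0.09, 9.83-fold, limma adjusted p = 7.7e-06). The inhibitor gene cact, whose product holds Dif and Dorsal in the cytoplasm, was 2.39-fold higher (1.26, adjusted p = 0.00808). The genes of the fungal recognition protein GNBP3 (at least 4.05-fold lower, -2.13, adjusted p = 0.000666) and of the protease grass (2.63-fold lower, -1.40, adjusted p = 0.000326), both extracellular parts of the pathway, were lower. So was the serpin gene Spn43Ac (necrotic, -0.77, adjusted p = 0.0135, chosen after its value was seen), which missed the threshold without replicates 2, 3 or 4 (0.0503 to 0.0669) or with median centring (0.105).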

How the data were processed

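All 8 arrays were used, 4 per comparison, with groups, replicates and dyes taken from titles and channel labels. Per the labels' protocols, total RNA of each pool was amplified, labelled and hybridised on oligonucleotide arrays. The intensity values, per the file headers, are foreground and local background per spot and dye in RFU, with marks on bad spots (6 to 112 per array), which were left out. The deposited table of log2 ratios was normalised by the authors and served as an alternative. The submitters' processing notes list limma and give no version in what was used here. The table ran aorta over heart, opposite to the direction here, and dorsal vessel over whole larva, with column medians of -0.0175 to 0.0054, and its background correction and exact scaling stay unknown.

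Intensities were scaled by 36.9 to 16 bits, corrected with normexp (offset 50, which is 1.35 RFU) and normalised by loess within arrays (span 0.3) in R 4.3.3 with limma 3.58.1. Corrected signals near background depend on the array and channel. Each oligonucleotide was fitted over all 8 arrays, with 1 coefficient per comparison and 1 for dye. Tests were two-sided with Benjamini-Hochberg adjustment over all oligonucleotides tested, 5 residual degrees of freedom and prior degrees of freedom of 2.05 and 2.23. The ratio within an array keeps both RNAs of a replicate paired. The steps were also run on simulated arrays, with an outcome that is not given here. Of 14438 gene oligonucleotides, 12632 were named through locus tags, 1144 through older identifiers and 662 as in the files. A block of 656 spots was judged displaced on 3 arrays by its rank correlation with the other arrays (-0.021, 0.012 and 0.035, and 0.806, 0.595 and 0.683 after a shift; at least 0.621 in all other blocks).

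The antimicrobial peptide genes, gene lists and marker lists were chosen with earlier results of these data known. All 10 genes are reported. From the lists of other peptides and pathway genes, up to 4 per comparison were named by the smallest adjusted p, and exceptions are said to be chosen after their values. The rule for genes of like pattern was not applied, since it needs 3 genes tested in both comparisons and there were 2. No sequences, scan dates or slide identifiers were used here.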

Additional observations from a re-analysis of the deposited data

Results flagged for a closer look

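In 2 results 1 array lay far from the other 3 of its comparison, by Dixon's test at its 95% critical value for 4 values. Such a test picks out about 1 in 20 groups by chance. It was run on the 2 genes tested for heart over aorta and the 5 tested for dorsal vessel over whole larva. For AttA, heart over aorta on replicate 3 was -0.25 while the other arrays were at 0.00 (gap over range 0.969), in a gene detected on 2 of 4 arrays in each organ. For Drs, dorsal vessel over whole larva on replicate 4 was -1.38 while the others lay between -0.16 and 0.04 (gap over range 0.86). The causes were not tested.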

How the results depend on the processing

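For dorsal vessel over whole larva, 1 antimicrobial peptide gene passed, Dpt. The count was 0 with an offset of 50 RFU and 0 when detection on all 4 arrays was required, a filter that left 1 of the genes to test and Dpt out. It was 2 with no filter on dim oligonucleotides (Mtk added) and 2 with a dye effect for each comparison (DptB added). Dpt passed in 14 of 15 alternatives, with log2 ratios of -2.14 to -0.13, and of -1.53 to -0.93 with single replicates left out. Without the replicate block, on single channels, the count stayed at 1 (Dpt adjusted p = 0.00568). For heart over aorta the count was 0 in every alternative run, the fit without the replicate block included. Signs turned for AttA heart over aorta without replicate 3 (0.19) or 4 (0.09), for Drs heart over aorta with the 50 RFU offset (-0.03), without replicate 1 (-0.67) or without replicates 1 and 3 (-0.16), and without replicate 4 for AttA (0.37) and Drs (0.22) in dorsal vessel over whole larva. Without single replicates the ratios ran from -0.26 to 0.19 (AttA) and -0.67 to 0.55 (Drs) for heart over aorta, and from -0.75 to 0.37 (AttA) and -0.73 to 0.22 (Drs) for dorsal vessel over whole larva. All of these values of AttA and Drs missed the threshold. The fits at 0.19 and 0.09 (AttA) and 0.22 (Drs) exceed every ratio of the arrays left, which averaged 0.00, -0.08 and -0.04: leaving out 1 array unbalances the dyes, and the fit then subtracts a dye effect shared with the other comparison. Their sign is therefore not one the arrays show. The AttA fits at -0.26 for heart over aorta, without replicate 1 or without replicate 2, likewise lay beyond the average of the arrays left, which was -0.08. Leaving out replicates 1 and 3 together, and reading the displaced block at its shifted place, were chosen after seeing the data.

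Counts over all oligonucleotides moved more. For heart over aorta 137 passed, but 410 with a dye effect for each comparison, 67 without the filter, 63 with median centring, 56 with the 50 RFU offset, 8 on its own 4 arrays, 27 to 46 without single replicates and 0 without replicates 1 and 3. For dorsal vessel over whole larva 2580 passed, and 1339 to 2123 without single replicates. Signal limits these results: 4 of the 9 genes never exceeded background, and ratios near background understate differences. The cause of these shifts was not tested, beyond fewer arrays in the fit.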
